A study of Mus musculus with 36 samples.

Results

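The 7 genes Spi1, Spib, Cebpa, Cebpb, Irf8, Irf4 and Gfi1 encode transcription factors known from myeloid development, most of which also act in lymphocytes. They were chosen by name and are represented by the 10 probe sets annotated to exactly 1 of them, out of 45037 probe sets that are not controls. Irf8, Irf4 and Cebpb have 2 probe sets each and the other members 1. By RefSeq (GRCm38.p6), Spi1 lies at chr2:91082374-91115759, Cebpb at chr2:167688915-167690432, Gfi1 at chr5:107716655-107725805, Cebpa at chr7:35119293-35121928, Spib at chr7:44525995-44532087, Irf8 at chr8:120736358-120756694 and Irf4 at chr13:30749233-30766981, all protein-coding. With 1 probe set kept per gene, the brightest on average, they are 7 of 18193 genes.

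The study measured mRNA on 36 one-colour arrays in 8 sorted populations of C57BL6 mice, each array labelled as age 1 week and both sexes, the adult population included. No allele or treatment is named for any group. They were LSKFlt3-CD48-CD150+ haematopoietic stem cells (here HSC, 6 arrays), LSKFlt3hi IL7R+ cells, labelled as thymic seeding progenitors (here LSK, 6 arrays), CLP, labelled as a putative seeding progenitor (4 arrays), ETPFlt3hi early thymic progenitors (here ETP, 6 arrays), DN2Kit+ cells (here DN2, 3 arrays), DN3 cells (6 arrays), Adult_ETP (here adult ETP, 2 arrays) and Pro_B, a B cell progenitor (here pro-B, 3 arrays). A tissue is stated for 15 arrays only, bone marrow for HSC and LSK and thymus for ETP, DN2 and DN3. The arrays form 2 deposit sets that were normalized apart: set 1 holds 15 arrays, each a pool of several mice, with 3 each of HSC, LSK, ETP, DN2 and DN3, and set 2 holds the other 21, for which neither tissue nor pooling is stated. The series calls its replicates biological. The median probe set of an array lay at 5.12 to 5.22 in set 1, below the 5.84 to 5.95 of set 2. Array levels are therefore set side by side only within a set. Fitted differences come from a model of population and set over both sets. For DN2, CLP, adult ETP and pro-B, each in 1 set only, they can draw on arrays of the other set. For example, Spib in adult ETP against ETP was 0.38 in the model and -0.007 within set 2. All levels are log2 values, on which a difference of 1 is 2-fold.

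Markers of HSC, pro-B and DN3 followed the labels. In set 2, Procr, a stem cell surface receptor, stood between 10.33 and 10.63 on the HSC arrays, Cd79a, a chain of the B cell receptor complex, between 11.13 and 11.24 on the pro-B arrays, and Ptcra, the pre-T receptor alpha chain, between 10.17 and 10.48 on the DN3 arrays. The mean of 4 DN2 markers was highest in DN2 within set 1 (8.37 to 8.66), but the markers did not go together. Kit and Cd44 were lower in DN2 (means 7.64 and 6.49) than in ETP (8.29 and 8.74) and higher than in DN3 (5.81 and 3.84). Il2ra and Gata3 were high in DN2 (12.27 and 7.69) and in DN3 (12.20 and 7.11). In set 2 the mean of 5 lymphoid progenitor markers was 11.32 to 11.38 in LSK and 10.84 to 11.36 in CLP, which these markers do not separate. Late neutrophil genes (7 of 8 listed were measured) were raised on part of the HSC, LSK and CLP arrays and on all pro-B arrays. Their summed linear level ran from 155 to 4780 over LSK and from 123 to 1490 over HSC in set 1, against 105 to 147 over ETP, DN2 and DN3. In set 2 it ran from 374 to 5930 over CLP, from 246 to 2960 over HSC, from 204 to 726 over LSK and from 1510 to 3200 over pro-B, against 234 to 306 over ETP, adult ETP and DN3. None of these genes was at 0, since the array scale has no zero. Results without the 7 arrays of HSC, LSK and CLP whose mean of these genes lay over 1 above the highest ETP, adult ETP, DN2 or DN3 array of the set (HSC replicates 1, 2 and 5, LSK replicates 1 and 3, CLP replicates 1 and 2) are given where a call changed. All 3 pro-B arrays also lay over 1 above it and were kept, since leaving them out would leave no pro-B array.

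PU.1, the product of Spi1, and its relative Spi-B are ETS factors: PU.1 is needed for macrophages, granulocytes, dendritic cells and B cells and has to decline for T cell commitment, while Spi-B is best known in B cells and plasmacytoid dendritic cells. The bZIP factors C/EBP-alpha and C/EBP-beta, encoded by Cebpa and Cebpb, drive granulocyte and monocyte genes, the first in progenitors and the second in maturing and activated cells. IRF8 and IRF4 are interferon regulatory factors that bind DNA together with PU.1 or Spi-B, IRF8 in monocytes, dendritic cells and B cells and IRF4 in B cells, plasma cells and activated T cells. Gfi1, a zinc finger repressor, restrains stem cell proliferation, favours granulocytes over monocytes and is needed by early T cells.

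**Figure D1:**
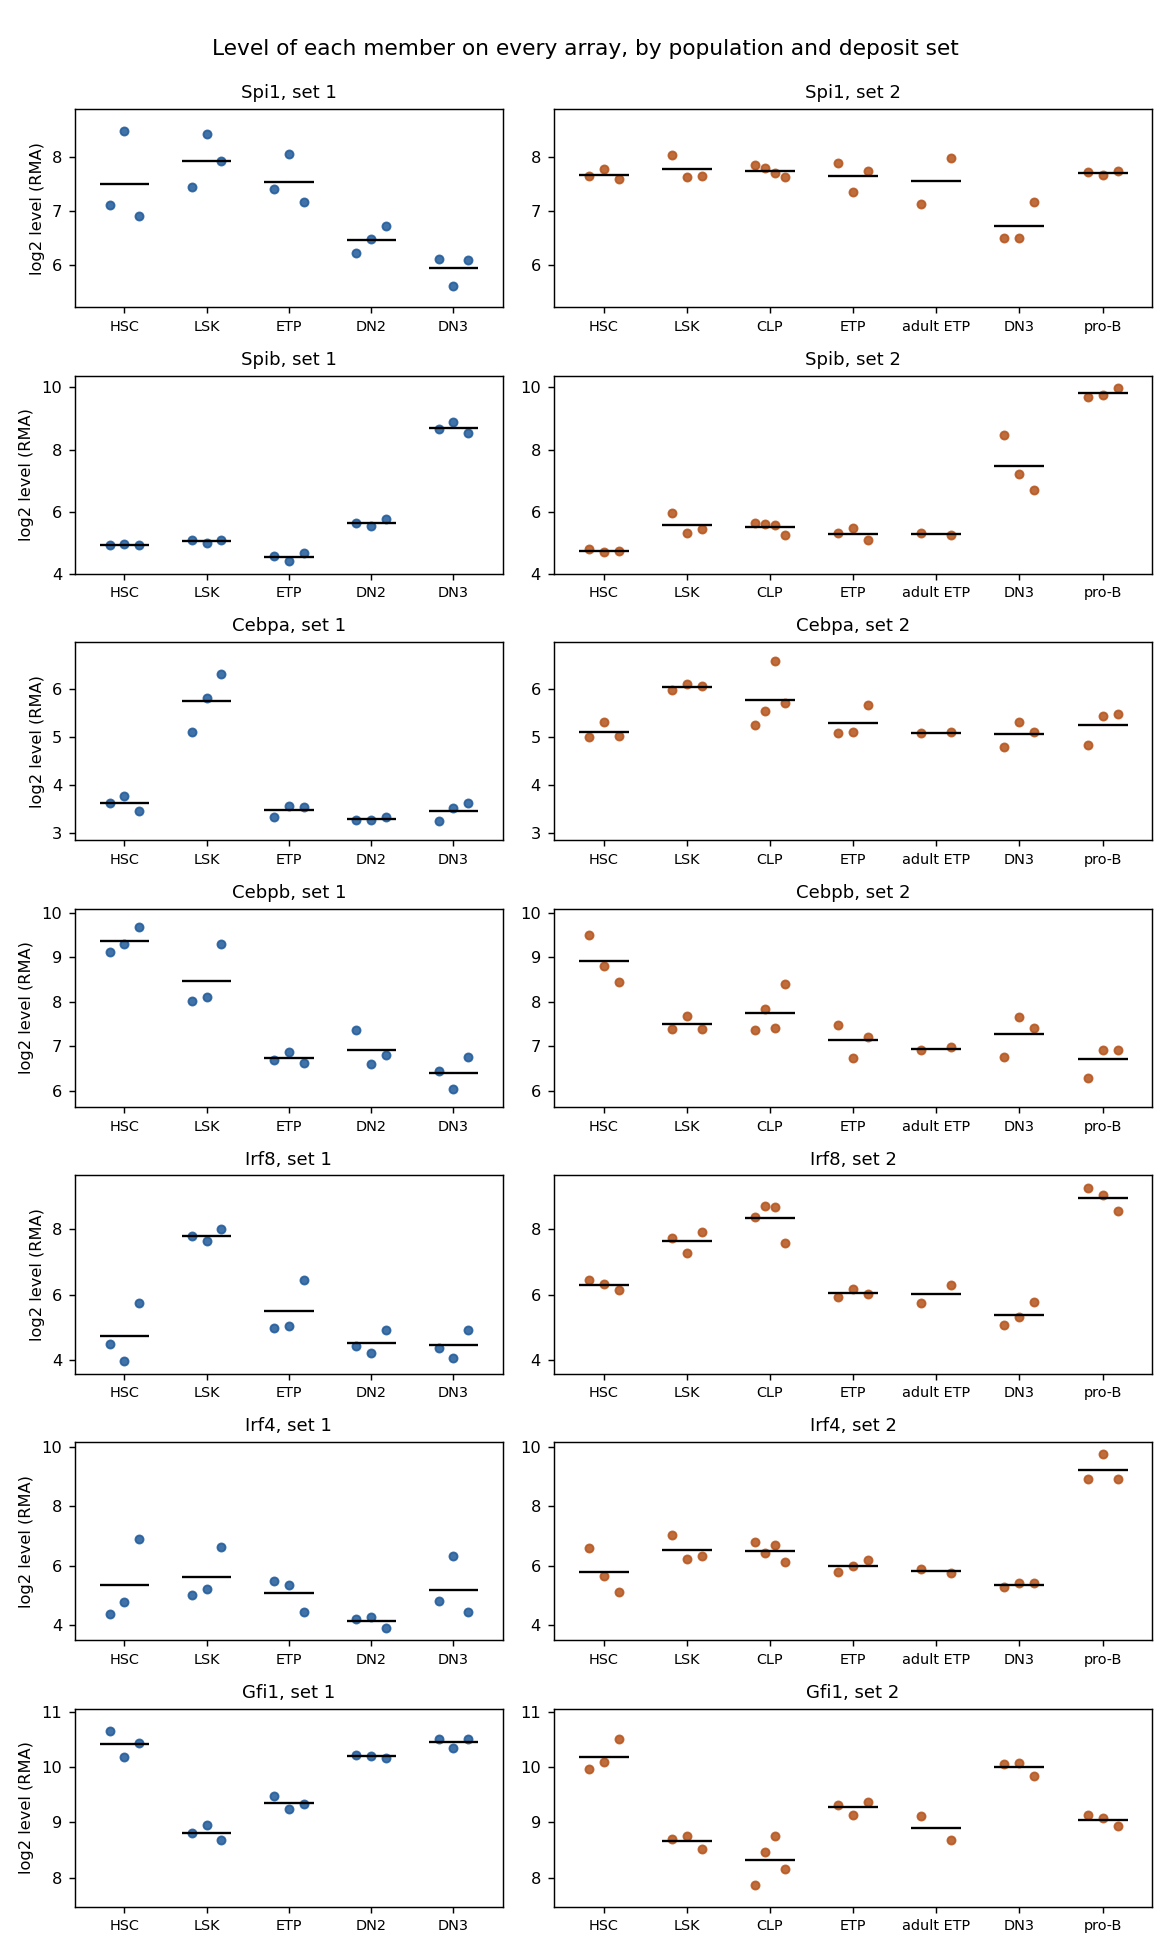
Log2 level of each of the 7 members (rows of panels) on every array, by population, in deposit set 1 (left) and set 2 (right). Points are arrays and bars are population means; Spib was highest in DN3 of set 1 and pro-B of set 2, Irf4 stood apart in pro-B, and Cebpa was highest in LSK of both sets.

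Spi1 stood at similar levels in HSC, LSK, CLP, pro-B and ETP and was lower in DN2 and DN3. In set 2 the means of LSK, CLP, pro-B, HSC, ETP and adult ETP lay between 7.55 and 7.77, and neighbours in that order overlapped. DN3 came last, at 6.49, 6.50 and 7.17 on its 3 arrays, and overlapped only the lower adult ETP array, at 7.13. In set 1 Spi1 stood at 7.40, 8.05 and 7.17 on the ETP arrays. It stood at 6.21, 6.47 and 6.71 on the DN2 arrays and at 6.10, 5.61 and 6.09 on the DN3 arrays. These 3 populations did not overlap one another, and ETP in turn overlapped LSK and HSC. In the model of population and set, Spi1 fell by 1.27 (SE 0.22, adjusted p = 5.07e-05, limma) from ETP to DN3, with 6 arrays each. The difference was -1.61 within set 1 (adjusted p = 0.013), and within set 2 the difference was -0.93 (adjusted p = 0.00575), just under 2-fold. Since RNA was taken from bulk sorted cells, fewer expressing cells and less RNA per cell cannot be told apart here or below.

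Spi1 was already lower in DN2 than in ETP, with a fitted difference of -1.02 (SE 0.28, adjusted p = 0.0252, limma), and DN3 differed from DN2 by -0.25 (95% confidence interval -0.83 to 0.32, adjusted p = 0.649). Within set 1 alone DN3 differed from DN2 by -0.53 (adjusted p = 0.495), and their arrays did not overlap. The DN2 call was close to both thresholds. Within set 1, the only set with DN2, the difference was -1.08 with adjusted p = 0.187. Leaving out ETP replicate 2, DN2 replicate 1 or DN2 replicate 2 took the adjusted p to 0.0909, 0.158 and 0.0916, and without ETP replicate 4, or without the 7 arrays named above, the difference was -0.99 or -0.98, just under 2-fold. In pro-B cells no such difference was found: Spi1 stood at 7.72, 7.67 and 7.73 there against 7.63 to 7.85 in CLP, a difference of -0.03 (95% confidence interval -0.63 to 0.56, adjusted p = 0.96). DN3 were lower than pro-B in Spi1, by a difference of -1.27 (SE 0.28, adjusted p = 0.00105), or -0.99 within set 2.

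The promoters of the 3 members that stood high in pro-B, Spib, Irf8 and Irf4, are shown as the sequence context of these genes. Each line is the 250 bases before an annotated start in RefSeq (GRCm38.p6), in the direction of transcription. Spib lies at chr7:44532072-44532321 on the minus strand, Irf8 at chr8:120736108-120736357 and Irf4 at chr13:30748983-30749232, both on the plus strand. RefSeq windows matched 6 of the 7 members. Irf8 has 2 windows, of which the one at the outer start of the gene is shown.
Spib: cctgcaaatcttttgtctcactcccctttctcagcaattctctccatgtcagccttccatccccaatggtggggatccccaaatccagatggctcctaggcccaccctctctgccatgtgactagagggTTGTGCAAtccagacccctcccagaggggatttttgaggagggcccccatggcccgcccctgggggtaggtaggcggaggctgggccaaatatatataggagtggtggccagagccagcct
Irf8: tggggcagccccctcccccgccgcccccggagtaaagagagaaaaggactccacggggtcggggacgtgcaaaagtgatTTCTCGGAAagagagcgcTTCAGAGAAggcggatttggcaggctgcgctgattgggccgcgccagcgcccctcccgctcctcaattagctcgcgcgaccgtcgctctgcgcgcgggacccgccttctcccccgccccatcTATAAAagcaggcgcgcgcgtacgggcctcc
Irf4: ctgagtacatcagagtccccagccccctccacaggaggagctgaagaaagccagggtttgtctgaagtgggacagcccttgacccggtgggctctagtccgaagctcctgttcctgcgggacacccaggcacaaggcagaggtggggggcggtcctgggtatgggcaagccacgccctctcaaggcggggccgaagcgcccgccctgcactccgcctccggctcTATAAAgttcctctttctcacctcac
Capitals mark matches, on either strand, to 7 short motifs: GAGGAAG of ETS factors, GGAANNGAA of PU.1 with an IRF, GAAANNGAA of IRFs, TTCNNNGAA of STATs, TTGCNNAA of C/EBPs, the octamer ATGCAAAT and the TATA box TATAAA. The Irf8 window held TTCTCGGAA and TTCAGAGAA, matches to TTCNNNGAA, which 7.02% of the 32851 promoter windows of this length hold. It also held TATAAA, as did the Irf4 window, a motif in 12.4% of windows. The Spib window held 1 match to TTGCNNAA, read on the opposite strand, a motif in 9.56% of windows. The letters GAGGAAG, GGAANNGAA, GAAANNGAA and ATGCAAAT, found in 10.6%, 6.99%, 7.13% and 1.6% of windows, were not in these 3.

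Spib followed a different course from Spi1. In HSC of set 2 it stood at 4.80, 4.69 and 4.75, the lowest population, and in LSK, CLP, ETP and adult ETP between 5.10 and 5.96. These HSC values lay close above the lower quartile of the set 2 arrays, at 4.41 to 4.67. In set 1 ETP was lowest instead (mean 4.55), apart below HSC (4.93). LSK against HSC was not called (0.47, adjusted p = 0.193, limma). In pro-B of set 2 Spib stood at 9.68, 9.76 and 9.98, above every other array of that set. From CLP to pro-B it rose by 4.29 (SE 0.34, adjusted p = 4.54e-11, limma), the largest difference of any member in the 10 comparisons. Spib also rose in T cell precursors. In set 1 it stood at 4.58, 4.40 and 4.68 on the ETP arrays, at 5.64, 5.54 and 5.77 in DN2 and at 8.65, 8.89 and 8.54 in DN3, and the 3 populations did not overlap. In the model it rose by 2.45 from DN2 to DN3 (SE 0.32, adjusted p = 3.16e-06) and by 3.15 from ETP to DN3 (SE 0.25, adjusted p = 1.36e-11). Within set 1, the only set with DN2, the rise from DN2 to DN3 was 3.05 (SE 0.12, adjusted p = 8.3e-09, limma). Thus Spi1 and Spib moved in opposite directions between ETP and DN3. The DN2 value lay above ETP by 0.70 in the model (adjusted p = 0.311) and by 1.09 within set 1, where it passed both thresholds (adjusted p = 6.44e-05). Pro-B stood above DN3 all the same: the difference of DN3 from pro-B was -1.75 (SE 0.32, adjusted p = 0.00012), and -2.34 within set 2.

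The DN3 arrays of set 2 were uneven in Spib. They stood at 8.47, 7.22 and 6.70 on replicates 4, 5 and 6, a range of over 1 on the log2 scale, and the rise from ETP was 4.14 within set 1 and 2.17 within set 2. This gap of -1.97 between the sets did not pass after adjustment over all genes (SE 0.39, adjusted p = 0.114, limma interaction). Kit, the stem cell factor receptor, looked at here after the values were seen, stood at 6.74, 5.67 and 7.92 on the same 3 arrays. Replicate 6 thus had the highest Kit and Spi1 (7.17) and the lowest Spib and Gfi1 (9.84) of these 3 arrays; its Ptcra, at 10.17, and Cd3e, at 11.36, were also the lowest. Whether earlier cells on this array contribute was not tested. Without it, the Spib rise from ETP to DN3 remained called.

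Cebpa was highest in LSK. In set 1 it stood at 5.11, 5.82 and 6.31 in LSK and at 3.63, 3.78 and 3.46 in HSC. ETP, DN2 and DN3 ranged from 3.25 to 3.63 together, each array under its own lower quartile over all probe sets, so that small differences among them are not readable. In set 2 the LSK arrays stood at 5.97, 6.11 and 6.05 and the CLP arrays at 5.25, 5.54, 6.57 and 5.70, and all other arrays ranged from 4.79 to 5.67. LSK did not overlap HSC, ETP or DN3 in either set, while CLP overlapped LSK and ETP. Cebpa rose by 1.53 from HSC to LSK (SE 0.23, adjusted p = 3.08e-06, limma) and fell by 1.51 from LSK to ETP (SE 0.23, adjusted p = 2.42e-05). Within set 2 the differences were 0.93 (adjusted p = 0.0171) and -0.76 (adjusted p = 0.274), under 2-fold. Within set 1 they were 2.12 and -2.27, where all 3 ETP arrays and 1 of 3 HSC arrays lay under the lower quartile, so their size there depends on values near the floor and is not compared between the sets. CLP differed from LSK by -0.78 and ETP from CLP by -0.74 in the model, neither past the threshold (adjusted p = 0.275 and 0.18). Within set 2, the only set with CLP, these differences were -0.28 and -0.48 (adjusted p = 0.823 and 0.556).

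Cebpb was highest in stem cells. It stood at 9.13, 9.30 and 9.69 in HSC and at 8.02, 8.10 and 9.30 in LSK of set 1, where the third LSK array reached the HSC range. In set 2 it stood at 9.50, 8.80 and 8.45 in HSC and at 7.40, 7.68 and 7.40 in LSK, with no overlap; CLP stood at 7.36, 7.85, 7.41 and 8.41. From HSC to LSK Cebpb fell by 1.16 (SE 0.28, adjusted p = 0.00194, limma), and by a further 1.04 from LSK to ETP (SE 0.28, adjusted p = 0.0297). Within set 1 the first difference was -0.90 (adjusted p = 0.0701) and did not pass. The second call was fragile. It rested on set 1, where the difference was -1.74 and where LSK replicate 3 stood highest; within set 2 the difference was -0.34 (adjusted p = 0.9996). Without LSK replicate 3 it was -0.77 (adjusted p = 0.127), and leaving out LSK replicate 1 or 2 or ETP replicate 1, 2, 3 or 5 took the adjusted p to between 0.0554 and 0.0806. Without the 7 HSC, LSK and CLP arrays with raised late neutrophil genes it was -0.64 (adjusted p = 0.426), whereas the fall from HSC to LSK remained called. Pro-B had the lowest mean of set 2, at 6.30, 6.92 and 6.93, a difference of -1.04 from CLP (SE 0.37, adjusted p = 0.0527) that passed within set 2 (adjusted p = 0.0159). DN2 and DN3 lay within -0.10 of ETP in the model.

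The brighter Cebpb probe set, 1418901_at, alone carried these differences. The second, 1427844_a_at, ranged from 5.60 to 6.94 over all arrays and showed a difference of 0.01 for LSK against HSC and 0.08 for ETP against LSK, and none of its 10 comparisons was called in the model over all probe sets. With the mean of both probe sets the Cebpb differences shrank to -0.58 and -0.48, under 2-fold. For Irf8 and Irf4 both probe sets gave the same calls: 1448452_at of Irf8 gave 1.29, -1.39, -1.55 and -1.97 in the 4 comparisons in which the brighter 1416714_at was called, and 1421174_at of Irf4 gave 2.81 and -2.73 in its 2.

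**Figure D2:**
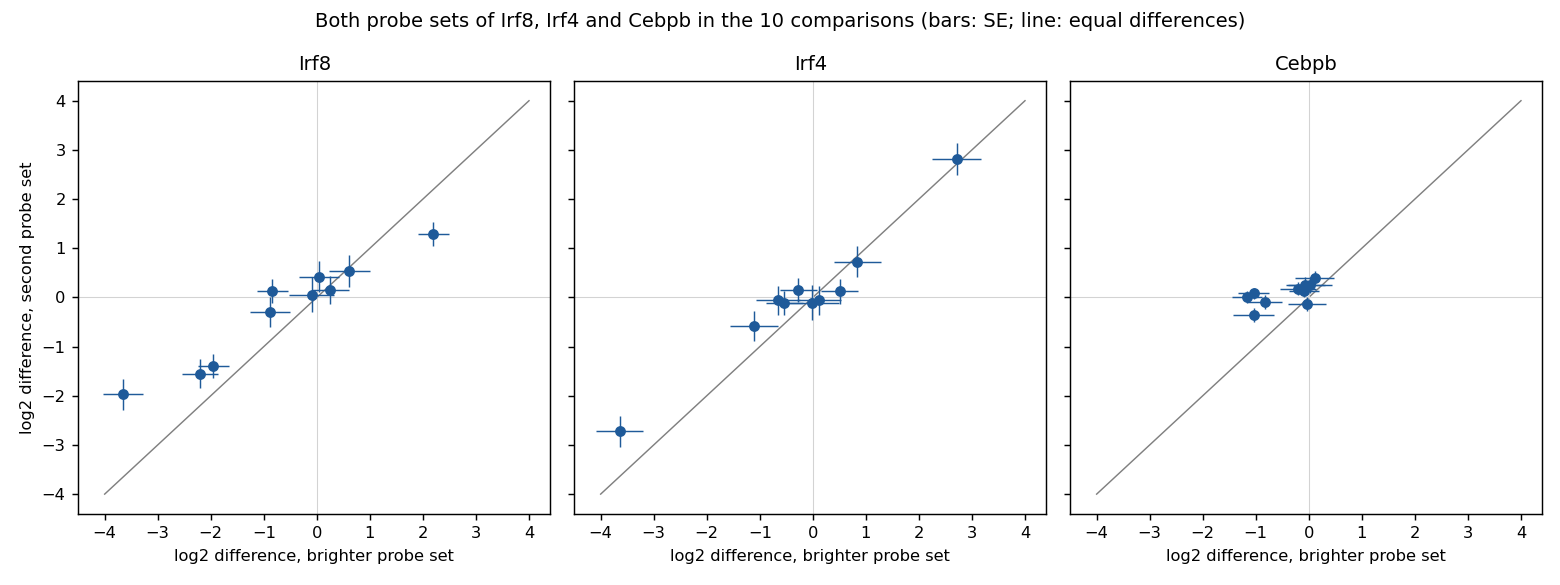
Log2 differences in the 10 comparisons from the brighter (horizontal) and the second (vertical) probe set of Irf8, Irf4 and Cebpb, with SE as bars and the line of equal differences. The Irf8 and Irf4 points rise together, while the second Cebpb probe set stays near 0, for example at 0.01 where the brighter one was at -1.16.

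Irf8 was high in LSK, CLP and pro-B and low in HSC, ETP, DN2 and DN3. In set 1 it stood at 7.79, 7.63 and 7.99 in LSK, at 4.49, 3.99 and 5.73 in HSC and at 4.99, 5.04 and 6.44 in ETP, so LSK stood apart from both. In set 2 it stood at 7.72, 7.28 and 7.90 in LSK, at 8.36, 8.72, 8.66 and 7.57 in CLP and at 9.24, 9.04 and 8.54 in pro-B, each overlapping its neighbour in the order. HSC (6.15 to 6.44), ETP (5.92 to 6.18), adult ETP (5.76 and 6.29) and DN3 (5.07 to 5.77) lay below all of these. Irf8 rose by 2.19 from HSC to LSK (SE 0.29, adjusted p = 4.67e-07, limma). It was lower in ETP than in LSK by a difference of -1.95 (SE 0.29, adjusted p = 2.41e-05) and than in CLP by -2.20 (SE 0.34, adjusted p = 7.84e-05). Within the sets the difference from LSK was -2.31 and -1.59, and both passed. From ETP onward no further change was called: DN2 differed from ETP by -0.88 (adjusted p = 0.244) and DN3 from DN2 by 0.04 (adjusted p = 0.969), while DN3 against ETP gave -0.84 with adjusted p = 0.0468, under 2-fold. The second probe set did not share this last difference, with 0.13 for DN3 against ETP (adjusted p = 0.811) and -0.30 for DN2 against ETP (adjusted p = 0.836). The difference of pro-B from CLP was 0.61 (95% confidence interval -0.18 to 1.40, adjusted p = 0.318).

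Irf4 stood apart in pro-B. It was at 8.93, 9.77 and 8.93 there, while every other array of set 2 ranged from 5.12 to 7.04. Irf4 rose by 2.71 from CLP to pro-B (SE 0.46, adjusted p = 6.84e-05, limma), and DN3, at 5.26, 5.40 and 5.40, were lower than pro-B by a difference of -3.64 (SE 0.44, adjusted p = 1.62e-07). No other comparison called it. In set 1 single arrays stood out: Irf4 was at 6.91 on HSC replicate 3, 6.63 on LSK replicate 3 and 6.33 on DN3 replicate 2, while the other HSC, LSK and DN3 arrays ranged from 4.35 to 5.22. The second probe set read 4.51, 5.36 and 4.23 on those 3 arrays. DN2, at 4.21, 4.27 and 3.88, was the lowest population of set 1 and did not overlap ETP, at 5.47, 5.35 and 4.43; its difference of -1.11 had adjusted p = 0.2. It passed with array weights (-1.07, adjusted p = 0.0474) and with the 2 populations alone in the model (-1.42, adjusted p = 0.0414). The latter fit had no set term and so set DN2 of set 1 against ETP of both sets. Within set 1 the difference of DN2 from ETP was -0.96 (adjusted p = 0.657), and the second probe set gave -0.58 in the model (adjusted p = 0.48).

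On the pro-B arrays genes of other cell types were raised too. The mean of the late neutrophil genes was 7.57, 7.44 and 6.52 there and 8.31, 7.07, 6.02 and 5.43 on the CLP arrays, and the mean of 7 macrophage and monocyte genes was 4.90 to 5.64 against 4.30 to 4.74. The mean of 6 dendritic cell genes was 5.47 to 5.77 in pro-B and 5.78 to 5.95 in CLP. Their part in the Spib, Irf4 and Irf8 levels was not tested. All 3 pro-B arrays are raised in late neutrophil genes, so no comparison with pro-B could be made without such arrays.

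Gfi1 showed a U-shaped course with small spread. In set 1 it stood at 10.66, 10.18 and 10.44 in HSC and at 8.80, 8.96 and 8.68 in LSK, then at 9.47, 9.25 and 9.34 in ETP, 10.22, 10.20 and 10.17 in DN2 and 10.51, 10.35 and 10.50 in DN3. HSC overlapped both DN2 and DN3 at the top, DN2 lay below DN3, and ETP stood apart below them and LSK apart below ETP. In set 2 the order was HSC (9.97 to 10.50), DN3 (9.84 to 10.08), ETP (9.14 to 9.36), pro-B (8.93 to 9.13), adult ETP (8.68 and 9.11), LSK (8.52 to 8.76) and CLP (7.87 to 8.75). HSC overlapped DN3, pro-B overlapped adult ETP, adult ETP overlapped LSK and LSK overlapped CLP, while DN3, ETP and pro-B did not overlap one another. Gfi1 fell by 1.57 from HSC to LSK (SE 0.12, adjusted p = 3.84e-12, limma). The later steps up passed 0.05 but not 2-fold: 0.57 from LSK to ETP (adjusted p = 0.00219), 0.89 from CLP to ETP (adjusted p = 9.14e-05), 0.77 from ETP to DN2 (adjusted p = 0.000913), 0.91 from ETP to DN3 (adjusted p = 4.55e-07) and 0.74 from CLP to pro-B (adjusted p = 0.00107). The step from LSK to ETP passed 0.05 in neither set alone, with 0.54 in set 1 (adjusted p = 0.0589) and 0.61 in set 2 (adjusted p = 0.18). DN3 were higher than pro-B by 1.06 (SE 0.15, adjusted p = 2.96e-06), or 0.94 within set 2. Without CLP replicate 3, the rise from CLP to ETP was 1.03 and passed both thresholds.

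**Figure D3:**
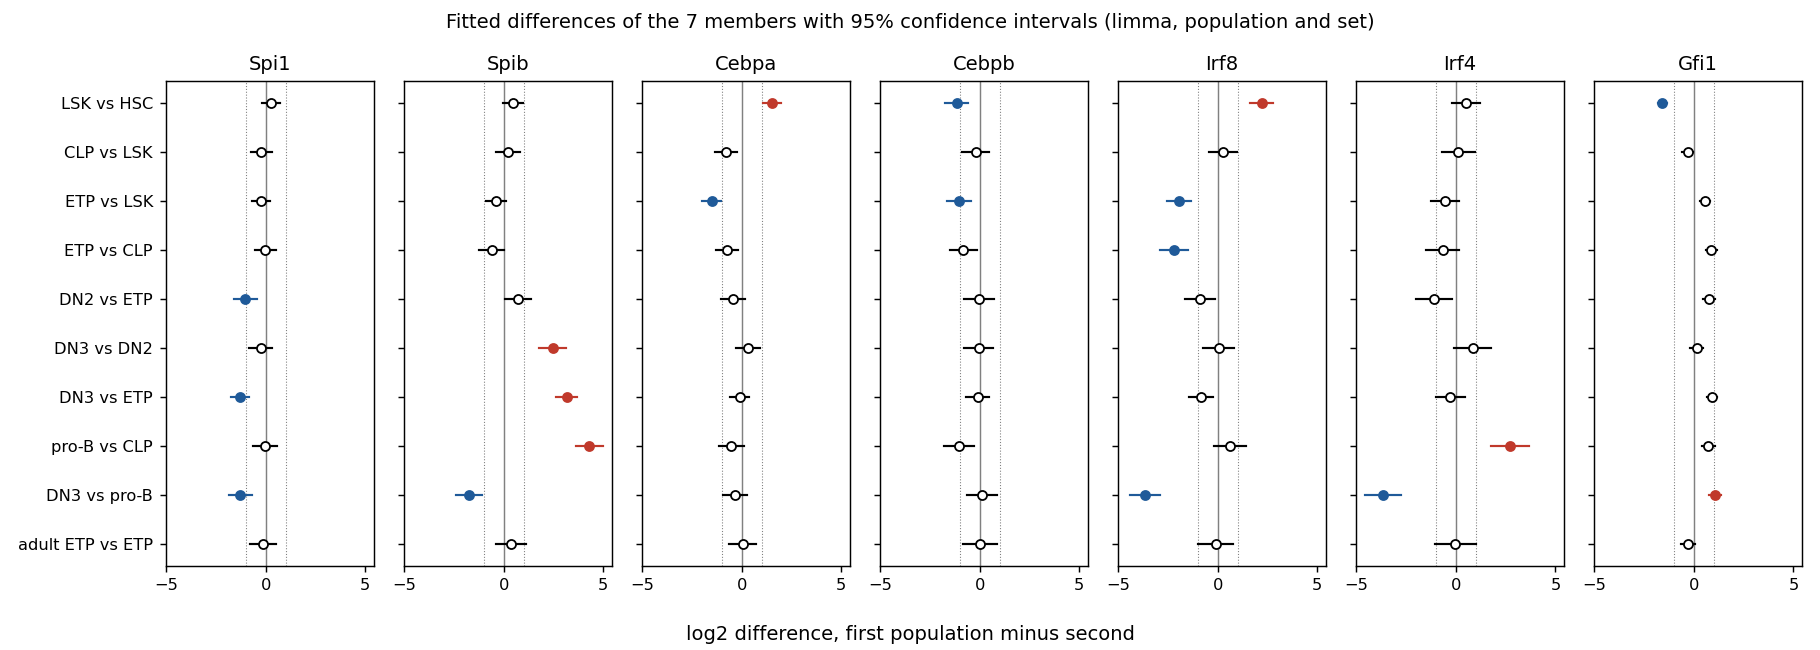
Fitted log2 differences (first population minus second) of each member in the 10 comparisons, with 95% confidence intervals, from the model of population and set over 36 arrays. Filled points passed adjusted p under 0.05 and 2-fold, in red where higher and in blue where lower; dotted lines mark 2-fold. Spib in pro-B against CLP reached 4.29 and Irf8 in DN3 against pro-B -3.66.

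Read by comparison, the members changed most between stem cells and LSK and between the B and T branches. From HSC to LSK 4 of 7 were called, Cebpa and Irf8 higher and Cebpb and Gfi1 lower, where 8.41% of all 18193 genes were called and 26.1% passed adjusted p alone, with no fold threshold; the members' median difference was 0.47 and that of all genes 0.01. Genes of other cell types moved in the same comparison: the endothelial cadherin gene Cdh5 (-1.97, adjusted p = 0.000928, 1 of 4 stromal and endothelial genes) and the macrophage receptor gene Mrc1 (-2.07, adjusted p = 0.00223, 1 of 7 macrophage genes) were lower in LSK. In set 2 Cdh5 was at 7.43 to 9.42 in HSC and 4.22 to 4.51 in LSK, and Mrc1 at 7.75 to 9.83 and 3.96 to 4.72. In set 1 Cdh5 was at 3.04 to 3.76 and 2.99 to 3.30, and Mrc1 at 3.11 to 4.58 and 2.87 to 5.04. The mean of the 4 stromal and endothelial genes was 6.43 to 8.58 in HSC and 5.96 to 6.05 in LSK of set 2, and 4.69 to 6.78 and 4.69 to 5.81 in set 1. That of the 7 macrophage genes was 5.06 to 5.44 and 4.37 to 4.42 in set 2, and 3.74 to 3.84 and 3.58 to 4.56 in set 1. The collagen gene Col1a1 reached 11.77 on 1 HSC array of set 2 and 11.21 on 1 of set 1. The part of such cells in the members' differences was not tested; within set 1 the members' differences were 2.12 for Cebpa, 3.06 for Irf8, -1.61 for Gfi1 and -0.90 for Cebpb. Between CLP and LSK none of 7 was called by limma (background 0.33% of genes, or 0.572% by adjusted p alone), and 2 of 7 (Cebpa and Gfi1, both lower) had an unadjusted p under 0.05 in the model. Within set 2, the only set with CLP, Cebpa differed by -0.28 (SE 0.24) and Gfi1 by -0.35 (SE 0.18), and neither was called. From LSK to ETP 3 of 7 were called, all lower (Cebpa, Cebpb, Irf8), with 1.67% of genes called (3.5% by adjusted p alone) and a median of -0.54 against 0.01. From CLP to ETP Irf8 alone was called, against a background of 1.39% (2.76% by adjusted p alone), with a median of -0.66 against -0.02.

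In the thymus, Spi1 alone was called from ETP to DN2, where 3.09% of genes were (5.13% by adjusted p alone), and Spib alone from DN2 to DN3, where 2.34% were (6.12%). From ETP to DN3 Spib was higher and Spi1 lower, with 5.9% of genes called (16.1% by adjusted p alone). From CLP to pro-B Spib and Irf4 were higher and no member lower, with 5.85% of genes called (17% by adjusted p alone) and a median of 0.61 against 0.04. Between DN3 and pro-B 5 of 7 were called, against 8.27% of genes (23.4% by adjusted p alone): Irf8 (-3.66), Irf4 (-3.64), Spib (-1.75) and Spi1 (-1.27) were lower in DN3 and Gfi1 (1.06) higher, with only the 2 C/EBP genes not called. Adult ETP and ETP differed in none of 7 by limma, with 0.209% of genes called (0.44% by adjusted p alone), and 0 of 7 had an unadjusted p under 0.05. The widest 95% confidence interval there was that of Irf4, from -1.06 to 1.02, so differences of up to 2-fold in that gene could not be seen with 2 adult arrays.

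The comparisons share populations, so their differences are not independent. The Irf8 rise from HSC to LSK was 3.06 within set 1 and 1.33 within set 2. No interaction of a member passed 0.05.

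**Figure D4:**
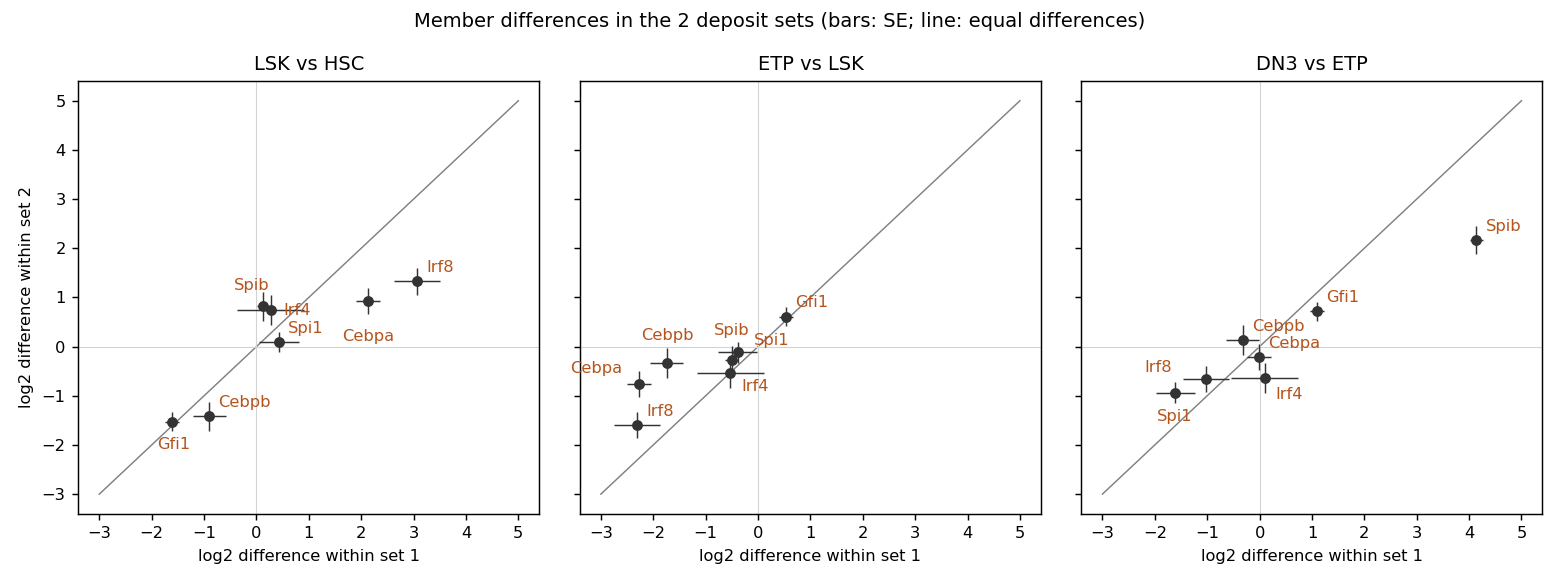
Log2 differences of the 7 members within set 1 (horizontal) and within set 2 (vertical) for LSK against HSC, ETP against LSK and DN3 against ETP, with SE as bars and the line of equal differences. Irf8 lies at 3.06 and 1.33 for LSK against HSC, and Spib at 4.14 and 2.17 for DN3 against ETP.

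Of 13 listed relatives of the same families 10 were measured. In 4 of the 10 comparisons 1 of 10 was called, LSK against HSC, DN3 against ETP, pro-B against CLP and DN3 against pro-B, where 8.41%, 5.9%, 5.85% and 8.27% of all genes were, and in the others none. Spic, the third PU.1-related gene, was lower in LSK than in HSC (-1.10, adjusted p = 0.0232, limma). Irf2 was lower in DN3 than in ETP (-1.20, adjusted p = 6.5e-06) and pro-B (-1.33, adjusted p = 6.31e-05), and Irf9, a partner of STAT proteins in interferon signalling, lower in pro-B than in CLP (-1.15, adjusted p = 0.00199).

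Myeloid genes that these factors are known to drive were examined as 16 listed targets, all measured. List medians below stand against medians of all genes between -0.04 and 0.05 in the 10 comparisons. From HSC to LSK 5 were higher and 2 lower (median 0.24), led by the granule peroxidase Mpo (5.11), the surface receptor Cd33 (4.09) and the macrophage growth factor receptor Csf1r (3.40). From LSK to ETP, where Cebpa, Cebpb and Irf8 were lower, 1 was higher (Csf1r, 1.63) and 1 lower (Ncf4, an oxidase subunit, -1.08), with a median of -0.13. From ETP to DN2, where Spi1 was lower, 5 were lower and 0 higher (median -0.62), led by Csf1r (-5.91, adjusted p = 1.99e-09), Cd33 (-3.38) and Mpo (-2.78). From ETP to DN3 6 were lower (median -0.50), and from CLP to pro-B, where Spi1 differed by -0.03, 5 were lower (median -0.45), led by Mpo (-5.00), the signalling adaptor Tyrobp (-2.91) and Cd33 (-2.45). DN3 against pro-B gave 7 lower and 0 higher (median -0.97). Of all genes, 8.41% were called from HSC to LSK, 1.67% from LSK to ETP and 3.09% from ETP to DN2. The share was 5.9% from ETP to DN3, 5.85% from CLP to pro-B and 8.27% between DN3 and pro-B.

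The B lineage genes listed hold partners of these factors as well as receptor chains and signalling proteins. At least 1 was called in each comparison except adult ETP against ETP, with only 1 in CLP against LSK and in DN2 against ETP. Of 12 listed, 8 were higher in LSK than in HSC, 8 lower in ETP than in LSK, 10 higher in pro-B than in CLP and 10 lower in DN3 than in pro-B. The medians were 1.58, -1.76, 2.76 and -4.85, and 8.41%, 1.67%, 5.85% and 8.27% of all genes were called in these comparisons. Examples are Ebf1, the early B cell factor (3.59 from HSC to LSK and -3.77 from LSK to ETP), and Pou2af1, a coactivator of octamer factors (-3.92 from LSK to ETP). From ETP to DN3 2 were higher and 1 lower: Ikzf3, which encodes Aiolos (3.90), and Pou2af1 (1.40) were higher, while Btk, a kinase of B cell receptor signalling, was lower (-2.31). Pou2af1 was higher in DN2 than in ETP (4.11, adjusted p = 4.35e-06, limma) and lower in DN3 than in DN2 (-2.71, adjusted p = 0.00225), the step at which Spib rose. Of 12 measured T lineage regulators 4 were higher in DN2 than in ETP and 0 lower (median 0.56), with Bcl11b, the T commitment factor, at 7.22, Gata3 at 2.18 and Ets1 at 2.14. From ETP to DN3 7 were higher and 2 lower. Of all genes, 3.09% were called from ETP to DN2 and 5.9% from ETP to DN3. Of 11 measured dendritic genes 1 was higher and 3 lower from LSK to ETP (median -0.03), where 1.67% of all genes were called. Cd74 was higher (1.05), and Klf4 (-1.59), Zeb2 (-1.48) and Tcf4 (-1.25), the E protein of plasmacytoid dendritic cells, were lower.

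Genes with the most similar course were sought among 1748 genes that spanned at least 2 over the 12 population means, each centred within its set. As a description over 12 means that share arrays and normalization, Pearson's r was 0.965 for Specc1, 0.963 for Dusp6 and 0.962 for Egfl7 with Spi1. For Spib the nearest named gene was Sit1 (0.953), after 9530077C05Rik (0.984) and A630023P12Rik (0.962). Cebpa was nearest to Nos1ap (0.948), Rem2 (0.929) and Ccl9 (0.927), and Cebpb to the granule protease gene Prtn3 (0.971), Cpq (0.967) and Sqor (0.963). Irf8 was nearest to Sdc4 (0.948), Ebf1 (0.946) and St6gal1 (0.941), Irf4 to P2rx3 (0.949), 5730488B01Rik (0.945) and Gfra2 (0.945), and Gfi1 to Plxdc2 (0.941), Dio2 (0.931) and Ikzf4 (0.923). Among the members themselves the highest values were 0.76 for Irf8 with Irf4 and 0.74 for Irf8 with Cebpa, and the lowest were -0.79 for Irf8 with Gfi1 and -0.68 for Cebpa with Gfi1. Spi1 and Spib gave -0.50, and Cebpa and Cebpb 0.35. The centred mean of Irf4 was 3.3 in pro-B and between -1.18 and 0.62 in all other means. Its r values, the 0.76 with Irf8 included, therefore lean on the pro-B mean.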

How the data were processed

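The deposited values are log2 expression values of Affymetrix mouse arrays, made by the authors with RMA per the submitters' processing notes; the arrays fall into 2 sets whose quantiles differ, and the log base is taken from the range of the values. Of 45101 probe sets, 64 controls were left out and 34945 were annotated to 1 gene. Each of 18193 genes was read from its brightest probe set. A linear model of population and set was fitted over all 36 arrays with limma 3.58.1 in R 4.3.3 (lmFit, eBayes), with p-values adjusted over all genes by Benjamini-Hochberg. A gene was called at adjusted p under 0.05 and a log2 difference of at least 1. The model was tested on simulated data. The number of arrays limits the precision. The members and gene lists were chosen with earlier results of these data known. Named beside the members were up to 3 called genes of a list with the largest differences in a comparison, and the 3 genes nearest to each member. Kit, Cd74 and the sorting markers served as context. Replicate numbers were checked as pairs: deviations of arrays with the same number correlated between -0.0531 and 0.107 in set 1 and between -0.189 and 0.205 in set 2, so they were not treated as pairs. Alternatives changed the set term, the arrays fitted, the scaling, the probe set rule, the filter on dim genes, the fold threshold and the array weights; the one without the 7 HSC, LSK and CLP arrays with raised late neutrophil genes was chosen after seeing the data.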

Additional observations from a re-analysis of the deposited data

How the results depend on the processing

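No member difference that was called changed sign under any alternative; of 1489 member differences by alternative, 1442 kept their side of the threshold, 28 lost a call and 19 gained one. The fit of only the populations compared had no set term where a population is in 1 set only. In ETP against CLP and DN2 against ETP that fit therefore mixed arrays of both sets. Within set 2, Gfi1 in ETP against CLP was 0.96 and not called. The number of members called in ETP against LSK went from 3 to 1 within set 2. In ETP against CLP it went from 1 to 2 with no set term, with only the populations compared and with no fold threshold. In DN2 against ETP it went from 1 to 2 with only the populations compared, with no fold threshold and with array weights, and to 0 with quantile normalization and without the 7 HSC, LSK and CLP arrays with raised late neutrophil genes. In DN3 against ETP it went from 2 to 1 within set 2 and without dim genes, and to 4 with no fold threshold. The filter on dim genes left out Spib, Irf4 and Cebpa; with it the count went from 1 to 0 in DN3 against DN2 and from 5 to 3 in DN3 against Pro_B, and within set 2 the last was also 3. In Pro_B against CLP it went from 2 to 1: both calls (Spib and Irf4) were of genes left out, and Cebpb gained a call (-1.04, adjusted p = 0.0333). Leaving out 1 array at a time gave 0 to 1 in DN2 against ETP, 1 to 2 in ETP against CLP, 2 to 3 in ETP against LSK and 2 to 3 in Pro_B against CLP, and the main count in the others. The replicate number as a block was fitted only among HSC, LSK, ETP, DN2 and DN3, and for Pro_B against CLP without CLP replicate 4. With this block, Cebpb in ETP against LSK lost its call (-1.04, adjusted p = 0.0767). No other call of a member changed in the comparisons so fitted. Causes other than the filter were not tested. Cebpa lay under the lower quartile on all ETP, DN2 and DN3 arrays of set 1, which limits how small a level could be read.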
